A study of Mus musculus with 9 samples.

Results

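The genes of glycolysis and of the response to low oxygen were followed across 9 RNA-sequencing libraries of mouse embryonic cortex. They comprised 18 glycolytic enzymes, 2 transporters of the pathway's substrate and end product, and 13 genes that hypoxia-inducible factor (HIF) is known to switch on. The 33 genes were chosen by name for these roles, and all were found among the 18820 genes of the deposited table. Car9, a carbonic anhydrase that acidifies the space around cells, lay between 0 and 5.98 normalized counts and did not pass the filter of a mean of at least 10, which left 32 genes tested of the 15069 that passed.

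The study compared the cortex of C57BL/6J embryos at embryonic day 18.5 that were wild type (WT), heterozygous for a Cyfip2 mutation (Het) or Cyfip2 knockout (KO), with 3 libraries of each genotype. The Cyfip2 protein belongs to the WAVE complex, which promotes branched actin. The labels give no description of the mutant allele and do not say whether each library is its own embryo. The p-values therefore reflect library-to-library spread, which may be technical. Values are taken to be normalized counts, that is, the authors' gene counts divided by a size factor for each library. This reading rests on the name of the deposited table and on the DESeq2 listed by the submitters.

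Glycolysis splits glucose into pyruvate in the cytosol, and lactate dehydrogenase can then turn pyruvate into lactate, which leaves the cell through monocarboxylate transporters. When oxygen is scarce, prolyl hydroxylases no longer mark the HIF alpha subunits for destruction. HIF then binds DNA at short motifs with the core ACGTG or GCGTG and raises the RNA of glycolytic enzymes, of factors that attract blood vessels, and of proteins that throttle mitochondria. Neurons and glia of the brain run on glucose, and the enzymes exist as isozymes whose use differs between tissues.

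Cyfip2 itself lay between 10169 and 11174 normalized counts in WT, 8969 and 9882 in Het, and 7522 and 8255 in KO, so that the 3 genotypes did not overlap. The KO mean was 74.7% of the WT mean, so most of the transcript was still counted in the libraries labelled KO. Approximate depth ran from 29.4 to 54.4 M reads per library and was 32.3 M in KO replicate 2. The cortical genes Tbr1 and Emx1 were present in every library, with Tbr1 between 8835 and 11543. Other markers split the libraries across genotypes: Cdhr1 of olfactory bulb mitral cells was at 2138 to 3436 in 4 libraries (KO replicates 1 and 2, Het replicate 1, WT replicate 3) and at 21.8 to 53.1 elsewhere, and the Y-linked Ddx3y was listed at 0 in 3 of those 4, WT replicate 3 being the exception.

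Promoters of these genes were examined for the HIF core because the members moved together in 1 library, as given below. RefSeq windows (GRCm38.p6) reaching from 250 bases before to 50 bases after a gene's start were available for 31 of the 33 genes, as 47 windows, and were missing for Slc2a3 and Ndrg1. ACGTG or GCGTG on either strand occurred in 37 of the 47 windows (78.7%), compared with 57.0% of the 16556 windows of all genes in the table. By gene, 28 of 31 (90.3%) had a match in at least 1 window, against 62.4% of 13076 genes. All 12 HIF targets and 15 of the 18 glycolytic enzymes with a window had a match, and Gpi1, Tpi1 and Eno2 had none. Median GC content was 62.0% in the members' windows and 59.3% in those of all table genes. The members also had more windows per gene, and they were chosen by name for glycolysis and as known HIF targets. The part of GC content, window number and this choice in the shares was not tested. The stretches upstream of 8 members that were high in the same library are printed for comparison. They are not the 8 that stood farthest apart there. Gpi1 and Tpi1, without a match, lay farther above the median of the other libraries than Ldha but are not printed. The same holds for Eno1, Aldoa, Pfkl and Ddit4, which had a match. Stretches read 5′ to 3′ in the direction of transcription, with matches in capitals and without bases that GENCODE annotates as exon. Slc16a3 lies on the plus strand (chr11:120948817-120949052), Hk2 on the minus strand (chr6:82774455-82774704), Ldha on the plus strand (chr7:46845554-46845803), Adm on the plus strand (chr7:110627407-110627656), Pdk1 on the plus strand (chr2:71872974-71873223), P4ha1 on the plus strand (chr10:59323046-59323295), Bnip3 on the minus strand (chr7:138909520-138909756) and Vegfa on the minus strand (chr17:46032378-46032627). On the minus strand ACGTG reads as CACGT and GCGTG as CACGC, and CACGTG holds ACGTG on both strands at once.
Slc16a3: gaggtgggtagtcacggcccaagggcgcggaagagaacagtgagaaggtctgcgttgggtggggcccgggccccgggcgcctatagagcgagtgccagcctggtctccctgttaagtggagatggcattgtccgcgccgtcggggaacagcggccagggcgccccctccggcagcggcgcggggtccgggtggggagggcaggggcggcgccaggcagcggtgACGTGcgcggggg
Hk2: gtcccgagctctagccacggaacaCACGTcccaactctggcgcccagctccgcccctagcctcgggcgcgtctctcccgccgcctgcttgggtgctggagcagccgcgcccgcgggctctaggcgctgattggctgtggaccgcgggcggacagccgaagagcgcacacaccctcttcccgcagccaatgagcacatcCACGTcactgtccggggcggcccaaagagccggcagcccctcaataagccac
Ldha: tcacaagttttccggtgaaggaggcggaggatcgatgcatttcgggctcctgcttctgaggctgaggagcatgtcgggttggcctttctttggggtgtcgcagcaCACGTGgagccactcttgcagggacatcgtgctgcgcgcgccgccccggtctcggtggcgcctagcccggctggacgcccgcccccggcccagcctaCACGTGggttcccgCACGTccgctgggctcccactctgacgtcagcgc
Adm: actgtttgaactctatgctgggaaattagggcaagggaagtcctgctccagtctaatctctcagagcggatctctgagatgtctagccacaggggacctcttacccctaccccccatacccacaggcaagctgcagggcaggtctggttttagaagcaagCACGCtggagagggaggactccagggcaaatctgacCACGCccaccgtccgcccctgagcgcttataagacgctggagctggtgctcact
Pdk1: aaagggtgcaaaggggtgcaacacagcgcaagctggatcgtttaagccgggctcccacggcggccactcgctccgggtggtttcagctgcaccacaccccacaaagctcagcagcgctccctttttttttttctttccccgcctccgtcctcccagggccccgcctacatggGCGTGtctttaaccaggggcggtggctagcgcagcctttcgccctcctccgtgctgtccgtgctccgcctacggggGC
P4ha1: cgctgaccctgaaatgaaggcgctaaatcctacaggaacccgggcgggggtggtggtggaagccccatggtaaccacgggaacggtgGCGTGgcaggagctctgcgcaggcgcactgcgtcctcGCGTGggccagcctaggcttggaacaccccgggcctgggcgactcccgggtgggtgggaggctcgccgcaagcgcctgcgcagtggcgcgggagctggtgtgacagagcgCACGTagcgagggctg
Bnip3: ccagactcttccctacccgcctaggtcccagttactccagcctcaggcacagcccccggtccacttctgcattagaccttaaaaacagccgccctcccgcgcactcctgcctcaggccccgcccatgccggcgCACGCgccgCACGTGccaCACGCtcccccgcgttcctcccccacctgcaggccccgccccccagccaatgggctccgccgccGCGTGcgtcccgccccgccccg
Vegfa: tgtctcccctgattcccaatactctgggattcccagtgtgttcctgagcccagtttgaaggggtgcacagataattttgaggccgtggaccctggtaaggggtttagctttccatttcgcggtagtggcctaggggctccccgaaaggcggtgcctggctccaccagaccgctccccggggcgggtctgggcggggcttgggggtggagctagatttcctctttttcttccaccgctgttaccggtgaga
Ldha had 5 separate matching stretches in its whole window, 2 of them the palindrome, and Bnip3 had 4. The capitals at the end of the Pdk1 stretch belong to a match that runs past the start site. This Vegfa window had no match, whereas a second Vegfa window had 2 separate stretches. A match describes letters in the window and not a bound site.

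Per kilobase of transcript, the glycolytic enzymes held most of the highest levels. Gapdh, which oxidizes glyceraldehyde phosphate, had a median of 35315 normalized counts per kb over the 9 libraries, followed by the pyruvate kinase Pkm at 10382, Ldha at 5679 and the enolase Eno1 at 5235. Among HIF targets, the angiogenic factor Vegfa stood at 2113 and Ddit4, an inhibitor of mTOR signalling, at 1729. At the low end lay the inducible hexokinase Hk2 at 59.7, the vasodilator peptide Adm at 48.8 and the lactate exporter Slc16a3 (MCT4) at 20.3. Hk1, the constitutive hexokinase of brain, stood at 2209 per kb. The levels of many neighbours in this order overlapped between libraries, as Pgam1 (4385 to 5792) did with Ldhb (3653 to 5037). The order depended on the length used. With the length of all annotated exons in place of 1 transcript, Gapdh (10877) and Pkm (5049) still led, but Pgam1 (4291) and Ldhb (3648) came next, Ldha (3114) moved to rank 6 and Eno1 (1973) to rank 8. Among HIF targets Ddit4 (1729) and Egln1 (1064) then lay above Vegfa (973).

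**Figure D1:**
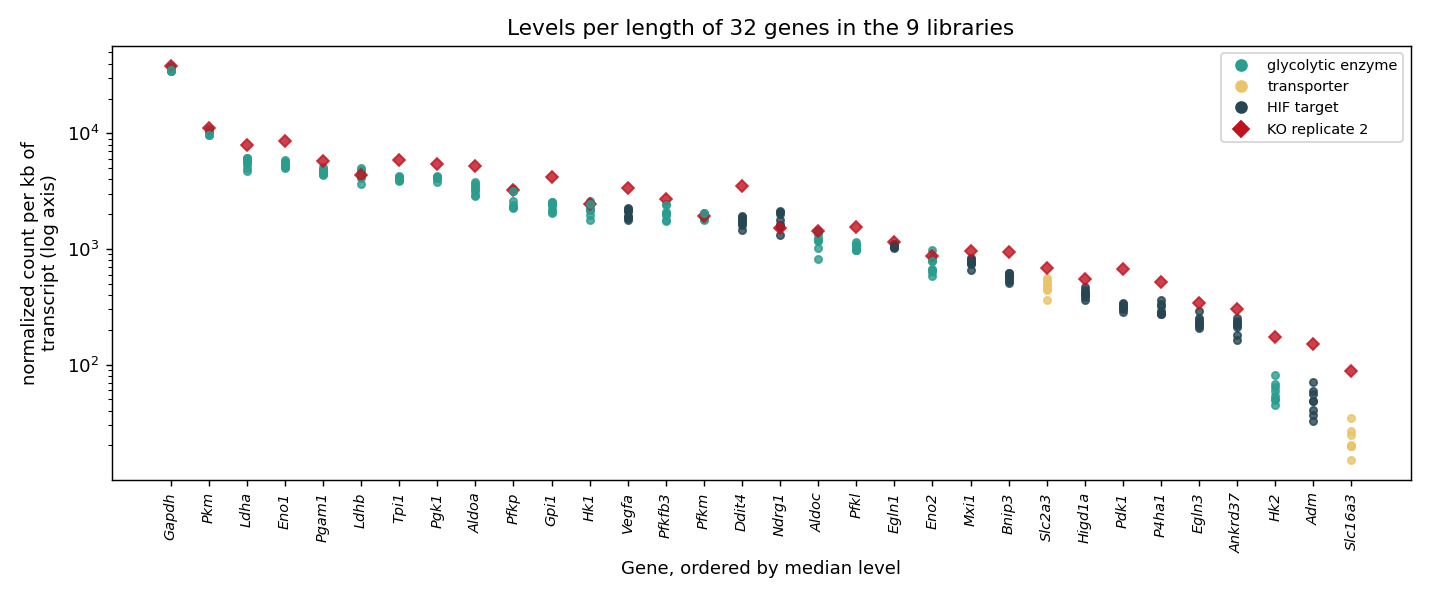
Level of each of the 32 tested genes in each library as normalized counts per kb of transcript (log axis), ordered by the median over 9 libraries; circles are coloured by role and the red diamond is KO replicate 2. The diamond lies above the circles for genes such as Hk2, Adm and Slc16a3 and among them for Ldhb, Pfkm and Ndrg1.

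KO replicate 2 had the highest value of the 9 libraries in 25 of the 32 genes and the lowest in 0. Over all 15069 tested genes it was highest in 13% and lowest in 16%. The genes with this library on top were 12 of 18 glycolytic enzymes, 2 of 2 transporters and 11 of 12 HIF targets. Each of the other 8 libraries was highest in 0 to 2 of the 32. The rule that names these genes also names KO replicate 2, so its values are a description and carry no test. These are bulk samples, in which a change in the number of cells of a type and a change in RNA per cell cannot be told apart.

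On the log2(value + 1) scale, KO replicate 2 exceeded the median of the other 8 libraries by a median of 0.38 for the glycolytic enzymes and 0.63 for the HIF targets. It lay above that median in 29 of the 32 genes, against 49.6% of all tested genes. The median difference was 0.46 over all 32 genes and -0.00 over all tested genes. In the other 8 libraries the median deviation of the 32 genes from the 9-library median ran from -0.06 to 0.07. Summed normalized counts of the 18 glycolytic enzymes reached 210732 in KO replicate 2, against 164548 to 178964 in the others. For the 12 HIF targets the sum was 33515, against 21567 to 25144. KO replicate 2 stood clear of the highest of the other 8 by over 0.5 log2 in 10 of the 32 genes, and in 0.684% of all tested genes; at 0.3 log2 the count was 16 and the background 1.86%.

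**Figure D2:**
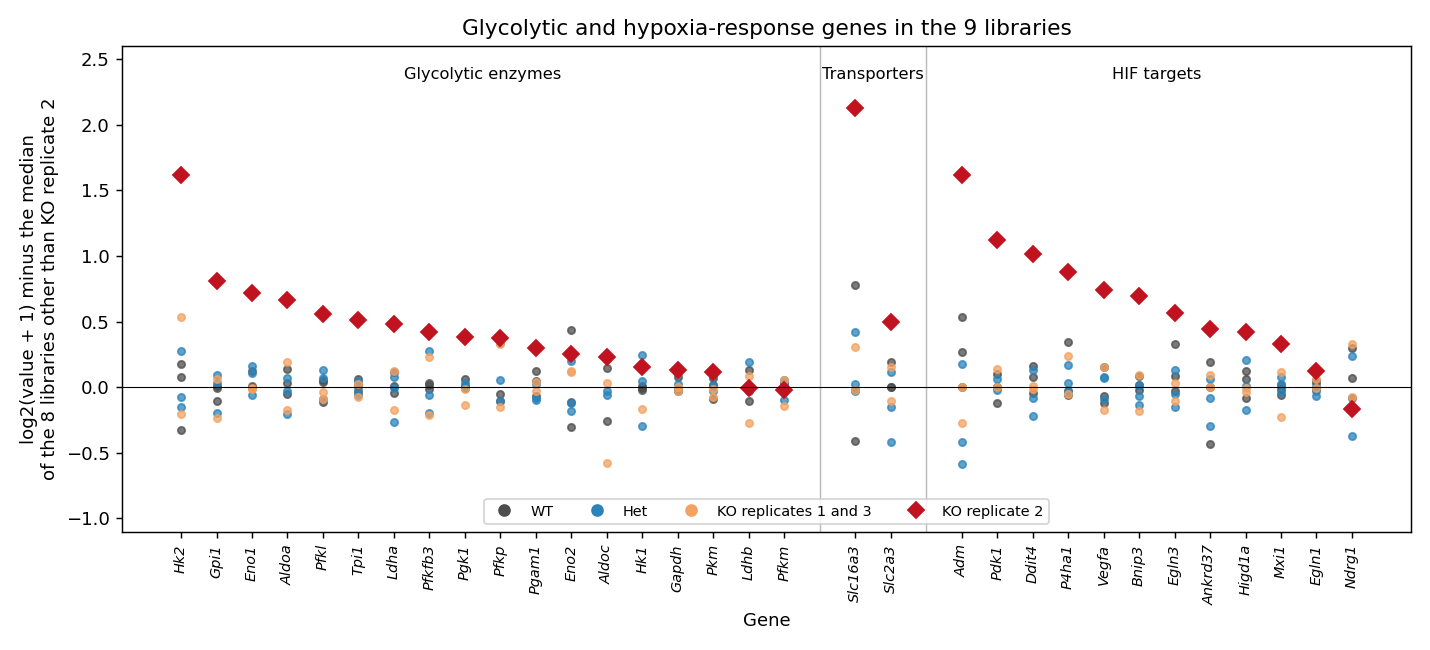
Difference of log2(value + 1) from the median of the 8 libraries other than KO replicate 2, for each tested gene and library, grouped by role and ordered by KO replicate 2. The red diamonds of KO replicate 2 run from 2.12 (Slc16a3) to -0.17 (Ndrg1), while the other KO libraries lie among WT and Het.

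Of all members the lactate exporter Slc16a3 stood farthest apart. It had 65.1, 85.6 and 149.8 normalized counts in WT, 85.3, 88.2 and 117 in Het, and 108, 382 and 85.5 in KO replicates 1, 2 and 3. The KO replicate 2 value was 4.40 times the median of the others and 2.55 times the highest of them. Slc2a3, the glucose transporter of neurons (GLUT3), had 1926, 1927 and 2199 in WT, 1439.6, 1739 and 2088 in Het, and 1788, 2716 and 2147 in KO. It too was highest in KO replicate 2, by a smaller difference of 0.49 log2 over the median, and Het replicate 1 was lowest.

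Hexokinase traps glucose in the cell as glucose 6-phosphate. Hk2 was at 353, 329 and 249 in WT, 281, 378 and 297 in Het, and 452, 960.3 and 271 in KO. KO replicate 2 held 3.07 times the median of the others, and KO replicate 1 was second highest. Hk1 had 8336, 8389 and 8507 in WT, 6893, 8705 and 10033 in Het, and 7529, 9383 and 9463 in KO. Its KO replicate 2 value ranked 3 of 9, so the constitutive isozyme did not stand apart there.

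The next steps isomerize and phosphorylate the sugar. Gpi1, the isomerase, was at 6454, 6916 and 6999.5 in WT, 7122, 7403 and 6057 in Het, and 7279, 12184 and 5917 in KO. KO replicate 2 exceeded the highest of the other libraries 1.65 times, whereas KO replicate 3 was the lowest of all. Phosphofructokinase, the committed step, has muscle (Pfkm), liver (Pfkl) and platelet (Pfkp) isozymes. Pfkl had 4065, 3632 and 4023 in WT, 3678, 4105 and 4279.7 in Het, and 3818, 5769.6 and 3689 in KO, again with KO replicate 2 alone on top, by 0.56 log2 over the median. Pfkp was at 9999, 9614 and 13073 in WT, 9641, 10743 and 13564 in Het, and 9329.8, 13419 and 13032 in KO. Here WT replicate 3, Het replicate 3, KO replicate 2 and KO replicate 3 lay together above the rest, and Het replicate 3 was highest. Pfkm, between 5083 and 5842 in the others, was at 5537 in KO replicate 2, rank 6 of 9. Pfkfb3, which makes the activator fructose 2,6-bisphosphate, was at 6039 in KO replicate 2, against 3902 to 5463.

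The later steps of the pathway split the sugar and harvest ATP. The aldolase Aldoa had 4930.4, 5229 and 5629 in WT, 5373, 5007 and 4433 in Het, and 5857, 8099 and 4535 in KO. Aldoc, the aldolase typical of brain and astrocytes, was at 3778, 3957 and 2854 in WT, 3338, 4012 and 3279 in Het, and 3486, 4007 and 2286 in KO. KO replicate 2 was 0.66 log2 above the median in Aldoa and alone on top, but within the range of the others in Aldoc. Triose phosphate isomerase, Tpi1, had 6386, 6633 and 6831 in WT, 6766, 6299 and 6474 in Het, and 6679, 9361 and 6228 in KO. The other 8 libraries spread over only 0.13 log2 in Tpi1, and KO replicate 2 lay 0.51 above their median.

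Enolase makes phosphoenolpyruvate. Eno1 was at 10533, 11512 and 10612 in WT, 10144, 11815 and 11413 in Het, and 10518, 17425 and 10469 in KO. Eno2, the neuronal enolase, had 1866, 1633 and 2731 in WT, 1854, 1781 and 2319 in Het, and 2202, 2409 and 2189 in KO. KO replicate 2 thus exceeded all other libraries in Eno1, by 1.47 times the highest, and was below WT replicate 3 in Eno2. The phosphoglycerate kinase Pgk1, at 9813 against 6855 to 7858, and the mutase Pgam1 were also highest in KO replicate 2. Pgam1 had 7969.8, 8616 and 9073 in WT, 8504, 7902 and 7783 in Het, and 8563, 10280.2 and 8202 in KO. The most abundant enzymes hardly separated: KO replicate 2 was at 48983 for Gapdh, against 43872 to 48357, and at 27000.3 for Pkm, against 23465 to 26603.

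Lactate dehydrogenase ends the anaerobic route. Ldha, the subunit that favours lactate production, was at 9914, 10308 and 11114 in WT, 8533, 10186 and 10796 in Het, and 9061, 14335 and 11133 in KO. Ldhb, which favours the reverse reaction, had 6309, 5643 and 5357 in WT, 6569, 5723 and 5796 in Het, and 6107, 5727 and 4764 in KO. KO replicate 2 topped Ldha by 0.48 log2 over the median and had rank 5 of 9 in Ldhb. Several of these enzymes share sequence with pseudogenes or paralogs, which the authors' counting could split. The shared portion was measured as the share of each transcript's 31-base words that also occur in another gene's transcripts. It was 92.1% for Gapdh, 77.2% for Eno1, 68.3% for Pgk1, 50.9% for Pkm, 42.1% for Pgam1 and 41.4% for Ldhb. Lower shares were 34.2% for Ldha and for Aldoa, 32.1% for Gpi1, 26.6% for Bnip3 and 18.2% for Tpi1. The shared portion was 0% for Slc16a3, Ddit4, Vegfa, Pfkm and Pfkfb3, and 0.237% for Hk2. Values of the former are uncertain to that extent, although Gm7336, the table gene closest to Gapdh, never exceeded 8502, and Eno1b, closest to Eno1, never exceeded 15.5.

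Among HIF targets Adm stood out most. It was at 81.8, 67.9 and 98.6 in WT, 76.9, 44.9 and 50.5 in Het, and 56.0, 209.5 and 67.7 in KO, which placed KO replicate 2 at 3.09 times the median of the others. Pdk1, the kinase that keeps pyruvate out of mitochondria, had 1477, 1608 and 1727 in WT, 1681, 1583 and 1609 in Het, and 1769, 3495 and 1606 in KO. All 8 other libraries lay within 0.26 log2 of each other in Pdk1, and KO replicate 2 was 1.98 times the highest of them. Ddit4 was at 2921, 3178 and 3360.3 in WT, 2581, 2845 and 3295 in Het, and 3035, 6093 and 2986 in KO. Its KO replicate 2 value was 2.02 times the median, with the other KO libraries inside the WT and Het range.

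P4ha1, a collagen prolyl hydroxylase subunit, had 1105, 1126 and 1461 in WT, 1174, 1128 and 1295 in Het, and 1108, 2110.2 and 1360.0 in KO. Vegfa was at 3664, 3787 and 4427 in WT, 3724, 4182 and 4169 in Het, and 3524, 6629 and 4415 in KO. Bnip3, a mitophagy receptor, had 1033, 1082 and 1006 in WT, 971, 927 and 1031 in Het, and 898, 1645 and 1088 in KO. In all 3 genes KO replicate 2 was alone on top, by 0.87, 0.74 and 0.69 log2 over the median, while KO replicate 1 was the lowest of all 9 libraries in Vegfa and Bnip3.

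The remaining HIF targets differed less. Egln3, an oxygen-sensing prolyl hydroxylase that HIF itself induces, was at 911 in KO replicate 2 against 552 to 771, and its relative Egln1 was at 4145 against 3633 to 3986. The nuclear protein gene Ankrd37 had 206, 152 and 236 in WT, 195, 168 and 216 in Het, and 219, 279.9 and 206 in KO. Higd1a, a mitochondrial survival factor, was at 1079 against 715.5 to 929.8, and the MYC antagonist Mxi1 at 2536 against 1725 to 2184. Ndrg1, a stress-induced gene also used by myelinating cells, broke the pattern: its value of 4382 in KO replicate 2 had rank 8 of 9 within a range of 3801 to 6199.5. Car9 was at 4.07 there, rank 5 of 9.

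Ranked among all 15069 tested genes by the gap of KO replicate 2 above the highest other library, Slc16a3 had rank 5, Hk2 rank 9, Adm rank 10, Pdk1 rank 16 and Ddit4 rank 23. The top 25 thus held 5 of the 32 members and the top 100 held 10. Between glycolytic enzymes and HIF targets the differences overlapped: from -0.02 to 1.62 log2 for the enzymes and from -0.17 to 1.61 for the targets.

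**Figure D3:**
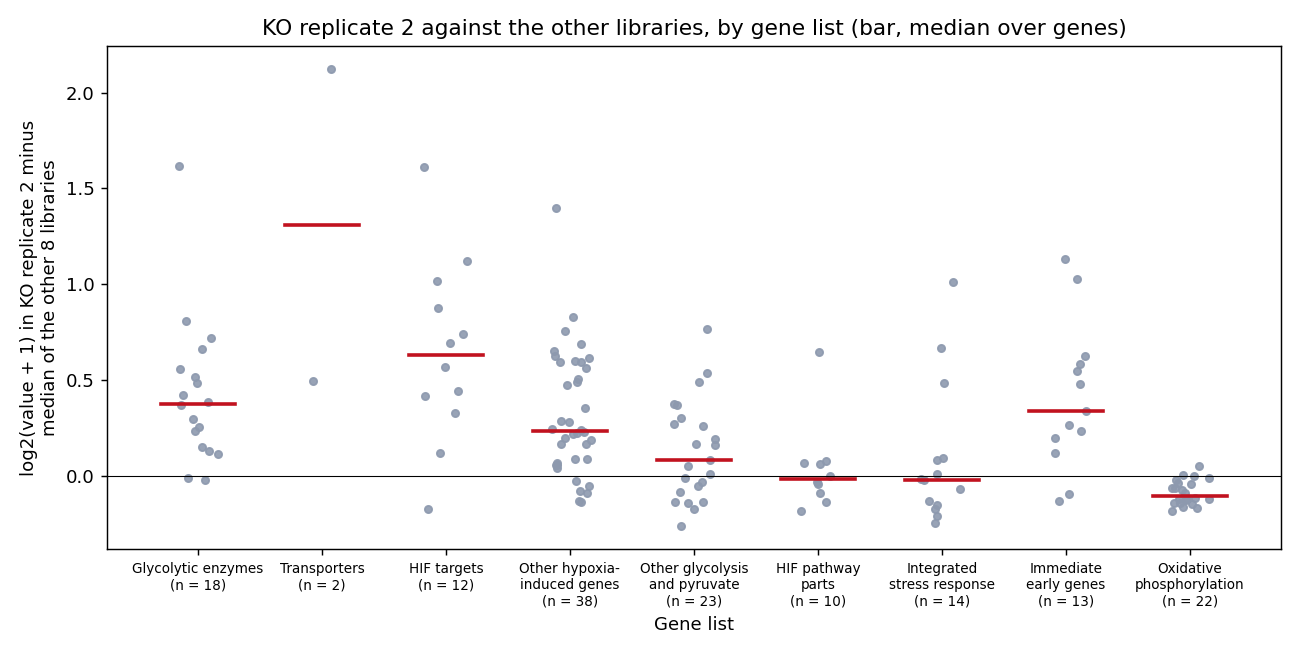
log2(value + 1) in KO replicate 2 minus the median of the other 8 libraries, 1 point per tested gene, for 9 gene lists; bars are list medians. HIF targets (0.63) and glycolytic enzymes (0.38) lie above zero. The listed HIF pathway parts (-0.02) and oxidative phosphorylation (-0.10) lie near or below it. Egln1 and Egln3 are counted among the HIF targets.

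Other genes of the same pathways followed in part. Of 38 tested further hypoxia-induced genes, KO replicate 2 was highest in 18 and lowest in 0, with a median difference of 0.23 log2. Ak4, a mitochondrial adenylate kinase, was at 999 in KO replicate 2, against 206 to 585. The glycogen genes Ppp1r3c (558 against 182 to 410.3), Ppp1r3g (39.8 against 19.1 to 27.3) and Gys1 (1509 against 851 to 1207) were also highest there, as was the nuclear receptor gene Rora (405 against 152 to 396). In Ak4 the 2 next highest libraries were WT replicate 2 and KO replicate 1.

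Of 23 further tested genes of glucose and pyruvate metabolism, 6 were highest in KO replicate 2 and 2 lowest, with a median difference of 0.08 log2. The glucose transporter Slc2a1 (GLUT1), counted in both lists, was at 4174 against 1952 to 3617 and Pfkfb1 at 137 against 96.0 to 113. Hk3, at 58.8, was below KO replicate 1 at 80.5. The 10 listed parts of the HIF pathway did not share the pattern, since KO replicate 2 was highest in 0 of 10. That list leaves out the prolyl hydroxylases Egln1 and Egln3. Both were counted among the HIF targets and were highest in KO replicate 2. Hif1a, whose protein rather than RNA is regulated by oxygen, was at 4394 against 4253 to 5060. Egln2, another prolyl hydroxylase, was lowest in KO replicate 2 at 3204, and Hif3a, at 910.2, was second to KO replicate 1 at 1099.

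Other differences of KO replicate 2 lay beside these values. It was 1 of the 4 libraries with high Cdhr1 and 1 of the 3 without Ddx3y. So were Het replicate 1 and KO replicate 1, which had 85.3 and 108 for Slc16a3 and 1681 and 1769 for Pdk1. In the list of 10 olfactory bulb genes KO replicate 2 lay above the median of the other libraries in 8. It was highest in 2, with a median difference of 0.31 log2 (sum 25772 against 15165 to 28014). By this sum WT replicate 3, with high Cdhr1, lay at 22043, below Het replicate 2 at 23162. Against the other 3 libraries with Cdhr1 above 1000, the median difference of the glycolytic enzymes in KO replicate 2 was 0.43 log2, and against the other 2 KO libraries it was also 0.43. Of 7 tested erythroid genes 5 were lowest in KO replicate 2, and their sum was 27036, against 35764 to 98774. In the list of 10 striatal genes it was highest in 4, with a median difference of 0.61 log2 (sum 15014 against 11694 to 14658). In the list of 11 astrocyte and radial glia genes it was highest in 5, with a median difference of 0.39 (sum 47846 against 26758 to 48911). These medians were about as large as those of the HIF targets (0.63) and the glycolytic enzymes (0.38). All 10 meningeal genes lay above the median of the other libraries, with a median difference of 0.43 (sum 25863 against 1781 to 37465), as did 6 of 7 choroid plexus genes, with 0.52 (sum 829.9 against 67.4 to 11783). In the list of 10 cortical neuron genes KO replicate 2 was highest in 2 and lowest in 2. Their median difference was -0.20 log2, with a range from -0.78 to 0.53. Neurod6 was 1 of those lowest in KO replicate 2, at 19275, beside 19991 in KO replicate 1. Endothelial genes, of which 1 of 12 was highest in KO replicate 2, summed to 14027 within a range of 7517 to 19245. No marker of these lists was at 0 in KO replicate 2. The part of these tissues and cell types, of olfactory bulb RNA and of sex in the result was not tested.

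Isozyme balance, which does not depend on a size factor shared by all genes of a library, was compared as the ratio of levels per kb. The mean Hk2/Hk1 ratio of WT was 0.0258 ± 0.00477, that of Het 0.0265 ± 0.00512 and that of KO 0.0445 ± 0.0258 (SD, n = 3 libraries). KO replicate 2 stood at 0.0715 and the other libraries at 0.020 to 0.0420. KO replicate 2 also had the highest Pfkp/Pfkm ratio, 1.68 against 1.21 to 1.63, and the highest Pfkl/Pfkm ratio, 0.804 against 0.487 to 0.580. It had the lowest Aldoc/Aldoa ratio (0.275 against 0.280 to 0.446), Eno2/Eno1 ratio (0.10 against 0.103 to 0.187) and Ldhb/Ldha ratio (0.556 against 0.596 to 1.07). In these last 3 pairs the numerator is the isozyme typical of brain or of oxidative tissue. The Pfkl/Pfkm pair was added after its values were seen.

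No isozyme ratio differed between genotypes past the threshold. Over 5 ratios and 3 pairs of genotypes, 15 exact two-sided permutation tests gave adjusted p-values of at least 0.875, and 3 libraries against 3 cannot reach below p = 0.1. The smallest p was 0.1 for Aldoc/Aldoa, which was 0.295 ± 0.0308 in KO and 0.401 ± 0.0509 in Het (SD, n = 3 each) in this exact test, a log2 difference of -0.44 between groups that did not overlap. Without KO replicate 2 the difference was -0.39. Hk2/Hk1 differed between KO and WT by 0.62 log2 (exact permutation p = 0.4), and by 0.19 without KO replicate 2.

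**Figure D4:**
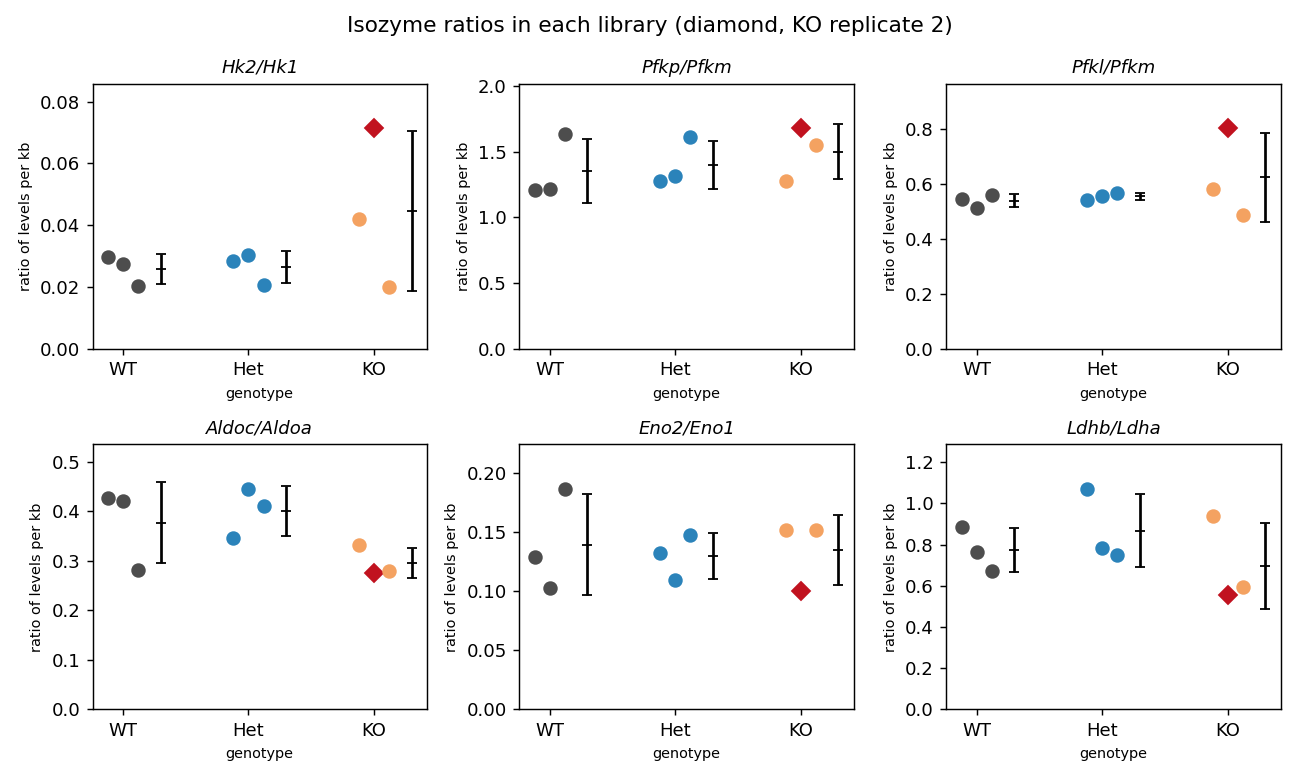
Ratio of levels per kb for 6 isozyme pairs in each library, by genotype; points are libraries, the red diamond is KO replicate 2, and bars are the genotype mean ± SD (n = 3). In Hk2/Hk1 and Pfkl/Pfkm the diamond lies above all other points, at 0.0715 and 0.804, and the KO bars are widest there.

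In the comparison of KO with WT, none of the 32 genes passed the test. limma, fitted to all 15069 genes with Benjamini-Hochberg adjustment, called 0 of the 32 members and 0% of all genes at an adjusted p under 0.05. At an unadjusted p under 0.05 it gave 0 members and 1.18% of all genes (178). In 0 of the 32 were the WT and KO libraries fully separated, against 6.46% of all genes. Hk2 had the smallest p, with 310.3 ± 54.5 normalized counts in WT and 561 ± 357 in KO (SD, n = 3 each), a log2 fold change of 0.67 ± 0.39 (SE; limma adjusted p = 1.00). Its 95% interval ran from -0.22 to 1.57. Pdk1 followed with 0.42 ± 0.25, from 1604 ± 125 in WT to 2289.8 ± 1047 in KO, and Ankrd37 with 0.26 ± 0.20, from 198 ± 42.4 to 235 ± 39.4. The SD of KO was many times that of WT in Hk2 and Pdk1, where 1 of 3 libraries was high. Sex was not balanced in this comparison. The sum of 4 Y-linked genes was 7261 to 7438 in WT, and 358, 401 and 6204 in KO replicates 1, 2 and 3. The part of sex in these estimates was not tested.

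The direction of the KO estimates rested on KO replicate 2. With it, the log2 fold change was positive in 28 of 32 genes, with a median of 0.13 (0.12 for the glycolytic enzymes and 0.18 for the HIF targets), while the median over all tested genes was -0.00. Without it, 11 of 32 were positive and the median was -0.04 (-0.04 for the enzymes and -0.02 for the targets). The fold change of Hk2 fell from 0.67 to 0.19, that of Pdk1 from 0.42 to 0.07 and that of Slc16a3 from 0.69 to 0.03, and Adm went from 0.18 to -0.41. limma called 0 members without this library too.

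KO against Het shared the KO libraries with the comparison above. Again 0 of 32 members and 0% of all genes were called by limma, and 0 members and 3.59% of genes had an unadjusted p under 0.05. Full separation of the libraries occurred in 0 members and 7.82% of genes. Slc2a3 had the smallest p, with a Het mean of 1755 ± 324 and a KO mean of 2217 ± 468 (SD, n = 3 libraries each), a log2 fold change of 0.33 ± 0.17 (SE; limma adjusted p = 0.942) with a 95% interval from -0.05 to 0.72. Egln1 differed by 0.09 ± 0.05, from 3733 ± 95.9 to 3978 ± 171, and Pgam1 by 0.16 ± 0.09, from 8063 ± 387 to 9015 ± 1110.5. Estimates were positive in 27 of 32 members (median 0.16) and, without KO replicate 2, in 16 of 32 (median 0.00). Slc2a3 then differed by 0.18, Egln1 by 0.06 and Pgam1 by 0.06. The replicate number, by which Het and KO libraries correlated for replicates 1 and 3 but not for replicate 2, was also used as a block. limma then still called 0 members and 0 genes, while 984 genes (6.53%) and 1 member had an unadjusted p under 0.05. That member was Slc2a3, at 0.33 ± 0.13 (SE; limma adjusted p = 0.673).

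**Figure D5:**
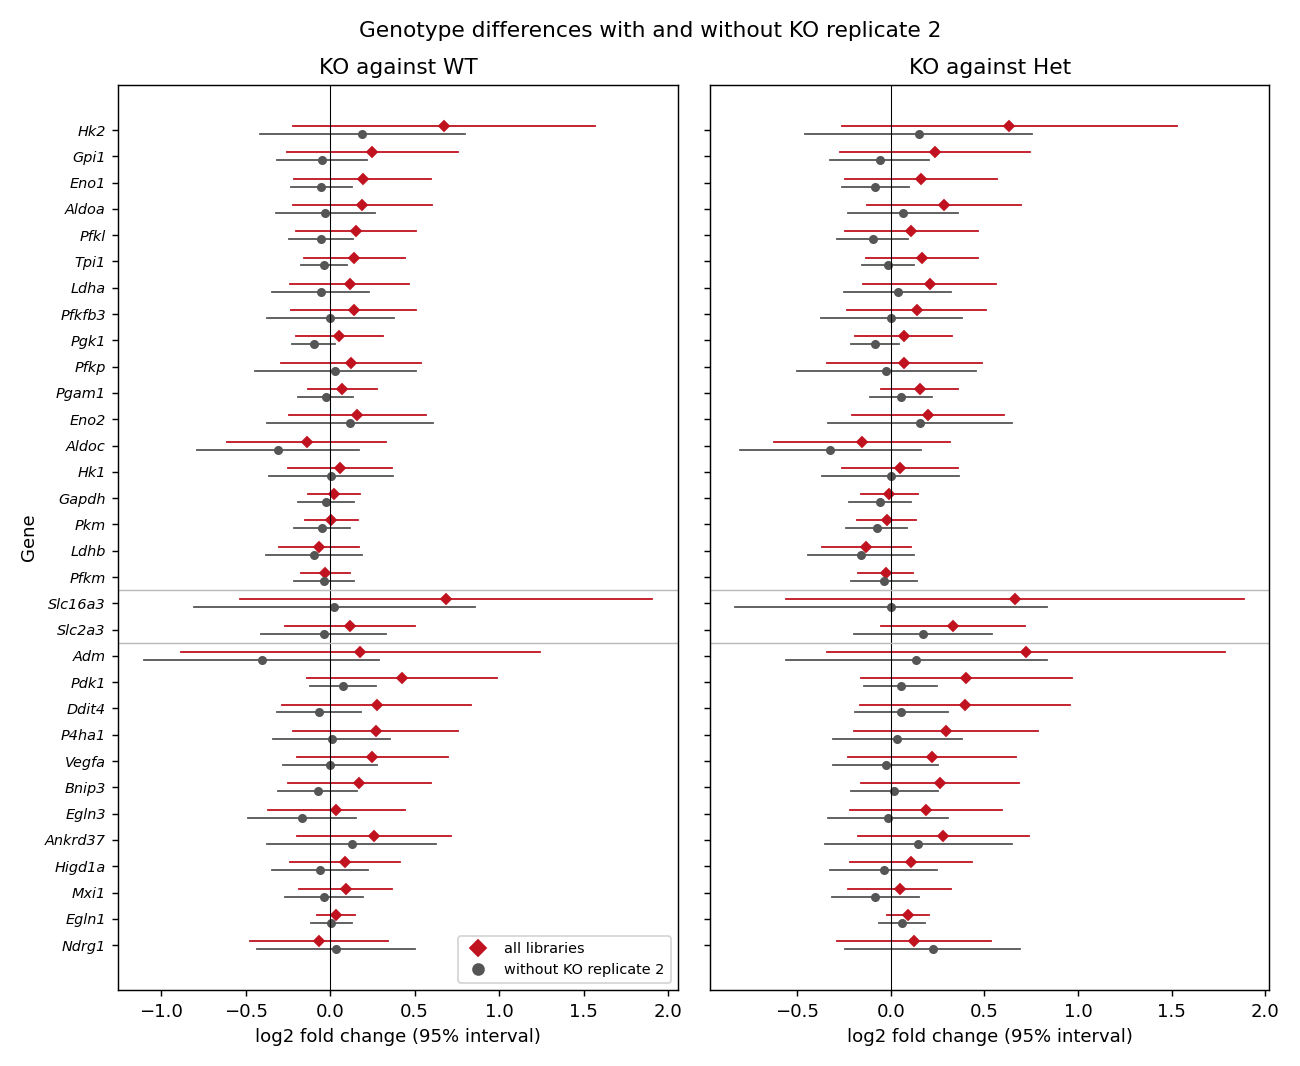
log2 fold change of each tested gene for KO against WT and KO against Het, with the 95% limma interval, from all libraries (red diamonds) and without KO replicate 2 (grey circles). All intervals include zero, and the estimates of Hk2 (0.67 to 0.19) and Pdk1 (0.42 to 0.07) against WT move most of the way to zero without that library.

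The fold changes of Het against WT did not involve the KO libraries. Their standard errors, intervals and p-values did, through the shared fit of all libraries. limma called 0 of 32 members and 0% of genes. At an unadjusted p under 0.05 it gave 0 members against 1.61% of genes. The Het and WT libraries overlapped in all 32 members, while 6.67% of genes were fully separated. Estimates were positive in 14 of 32, with a median of -0.01. Slc2a3 had the smallest p, at -0.21 ± 0.17 log2 (SE; limma adjusted p = 1.00), from 2017 ± 157 in WT to 1755 ± 324 in Het (SD, n = 3 each). Adm was at 82.8 ± 15.4 in WT and 57.4 ± 17.1 in Het, a difference of -0.54 ± 0.47 log2, and Egln1 at 3875 ± 95.7 and 3733 ± 95.9, a difference of -0.05 ± 0.05. The 95% interval of the Adm difference ran from -1.60 to 0.52, and that of Egln1 from -0.17 to 0.06. The precision differed between genes, with an interval from -0.12 to 0.18 for Gapdh and from -1.20 to 1.24 for Slc16a3. In the fit without KO replicate 2, the Het against WT interval ran from -0.72 to 0.77 for Slc16a3. That of Adm ran from -1.17 to 0.08, and that of Gapdh stayed at -0.12 to 0.18. Het replicate 3 differed from all other libraries in tissue markers. It was lowest in 10 of 10 meningeal genes (sum 1781 against 17761 to 37465), 12 of 12 endothelial genes and 8 of 10 microglial genes. The part of this difference in the comparisons with Het was not tested.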

How the data were processed

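RNA sequencing of mouse cortex (TruSeq Stranded mRNA libraries, per the labels' protocols) was deposited as 1 table of 18820 genes in 9 libraries. The submitters' processing notes name Salmon 0.11.2, R 3.6.0, DESeq2 1.19.11 and build GRCm38. The deposited values are a signal, taken to be gene counts divided by size factors by the authors. Whole reads could not be recovered: 60.2 to 78.1% of values below 6 lay within 0.1 of a whole step. Approximate depth was 29.4 to 54.4 M reads, and it limits the precision of low genes such as Adm. No column was left unmapped, and 18783 IDs matched a symbol.

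Genes with a mean of at least 10 were fitted as log2(value + 1) with limma 3.58.1 in R 4.3.3, in 1 fit of all 9 libraries with 3 contrasts and Benjamini-Hochberg adjustment over all genes, at a threshold of 0.05. Fold changes are on that scale, which understates those of low genes. The fit was tested on simulated data. Deviations from the genotype means of same-numbered Het and KO libraries correlated at 0.453, 0.104 and 0.469 for numbers 1, 2 and 3. Those of differently numbered ones ran from -0.464 to 0.146. Numbers 1 and 3 lay above every differently numbered pair of Het and KO, and number 2 did not. Het replicate 1 and KO replicate 1 also shared high Cdhr1 and the absence of Ddx3y. The labels do not say what a number marks. Isozyme ratios used exact permutation tests. Python 3.11.15, numpy 2.4.6, pandas 2.3.3, scipy 1.17.1 and matplotlib 3.10.9 did the rest. Lengths came from GENCODE (GRCm38) and promoters from RefSeq.

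The members, gene lists and comparisons were chosen with earlier results of these data known. Genes described by library were the 6 with the largest KO replicate 2 difference in each role, both transporters, the 3 smallest p-values per contrast and the isozyme pairs; others are named from their lists, and some list genes are not reported here. Alternatives were another pseudocount, filter, normalization, fit, block and left-out libraries.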

Additional observations from a re-analysis of the deposited data

How the results depend on the processing

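With each library left out in turn, limma called 0 to 1 genes in each contrast, and with only the 2 groups compared it called 1 gene for Het against WT and 1 for KO against Het, none of them a member. At an unadjusted p under 0.05, 5 members and 5.35% of genes passed for KO against WT without KO replicate 3, and 7 members and 9.29% for KO against Het. Without KO replicate 1 these were 3 members and 1.52%, and 6 members and 2.90%. Both of these fits kept KO replicate 2. Without KO replicate 2, 0 members passed in either contrast, beside 0.744% of genes for KO against WT and 1.81% for KO against Het. Without WT replicate 3 (KO against WT) and without Het replicate 3 (KO against Het) 1 member passed, and 0 members passed adjustment in limma in any of these fits. The median change of the glycolytic enzymes for Het against WT ran from -0.015 to 0.0489 with a library left out. The median difference of the glycolytic enzymes in KO replicate 2 was 0.43 against the other 3 libraries with Cdhr1 above 1000 and 0.43 against the other 2 KO libraries, and the share of all genes highest there was 23.6% and 27.0% in these smaller sets. Leaving out libraries moved the KO against WT medians from -0.04 to 0.19 (glycolytic) and from -0.02 to 0.33 (HIF targets), with the low end without KO replicate 2. With the replicate number as a block, 0 genes and 0 members were called in each contrast, with smallest adjusted p-values of 0.274 (KO against WT), 0.991 (Het against WT) and 0.673 (KO against Het). Same-numbered WT libraries correlated with Het and KO between -0.07 and 0.25. WT replicate 2 with Het replicate 2, at 0.25, lay above every differently numbered pair with WT, the highest being 0.17. The other same-numbered pairs with WT did not. No member passed adjustment in the main fit, so no member could change direction past the threshold. The KO against WT medians did change sign without KO replicate 2. They went from 0.12 to -0.04 for the glycolytic enzymes and from 0.18 to -0.02 for the HIF targets. With 3 libraries a genotype and 1 of them apart, differences within the intervals given could have been missed. The intervals are not adjusted for the number of genes tested, so larger differences could have been missed too.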

Other observations

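Genes of oxidative phosphorylation, which burns pyruvate in mitochondria, lay slightly low in KO replicate 2, as they did in Het replicate 2. Of 22 tested KO replicate 2 was highest in 0 and lowest in 7, with a median difference of -0.10 log2. It was lowest in 16% of all tested genes. Het replicate 2 was lowest in 9 of the 22. The sum of these genes was 124515 in KO replicate 2 and 123888 in Het replicate 2. Ndufv1, a subunit of complex I, was at 3257 in KO replicate 2, against 3494 to 3770 in the other 8 libraries. Immediate early genes, which respond to neuronal activity, had KO replicate 2 highest in 7 of 13, with a median difference of 0.34. Nr4a2 was at 2998 against 374 to 2623, and Egr3 at 107 against 27.4 to 76.8. Of 14 genes of the integrated stress response 2 were highest there and 3 lowest, and Trib3, at 25.4 against 7.48 to 19.4, had the largest difference.

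Genes outside the glycolytic and hypoxia lists also set KO replicate 2 apart. Tex14, a germ cell gene, was at 142.4 there against 4.81 to 22.1, and Kcne3, a potassium channel subunit gene, at 59.1 against 3.35 to 18.7. Apln, the gene of a vascular peptide singled out after its values were seen, was at 796 against 250.1 to 398. N4bp2, at 72.7 to 182.6 in the other libraries, was listed at 0.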
